A study of Mus musculus with 25 samples.

Results

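In the healthy lung, the CD68 segments, which hold macrophages, were set against the non-immune segments cut from the same places. The 6 segments were those of healthy regions 1, 3 and 13, chosen by their labels, and they were 6 of the 25 samples of the series. Each region gave 1 CD45+CD68+ segment and 1 DNA+CD45- segment, so that the comparison was 3 against 3 and paired by region number. The question was which probes differ between the macrophages and the non-immune cells of a lung without induced injury. CD45+ cells without CD68 fall in neither segment.

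The series holds 24 segments from 12 regions and 1 no template control. The sections, 6 um thick, came from 2 male mice of the SP-C I73T genotype, whose mutant surfactant protein C is induced by tamoxifen. The healthy regions came from the control lung, labelled untreated at day 0 and given corn oil by the design text, and this mouse carried the same allele. The other mouse gave 4 peri-injured and 5 injured regions, labelled day 14 after a single gavage of 175 mg/kg tamoxifen in corn oil. All 6 healthy segments therefore came from 1 animal, and the region class and the mouse cannot be told apart. The p-values concern regions of that lung, not animals. They use a spread partly shared across probes, so a probe that is uneven between the regions can still pass. Regions were picked on the stained tissue by histopathology, and the section was stained for CD45, CD68, DNA and pan-cytokeratin.

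Alveolar macrophages live on the surface of the air spaces, clear particles and surfactant, and are the main immune cell of the resting air space. CD68 is a lysosomal protein of macrophages and CD45 is carried by white blood cells, so the CD45- segment collects the epithelium, endothelium and stroma. In this assay, probes bound to RNA carry tags that are released by light from one segment at a time and counted by sequencing. A segment is a patch of tissue and can hold parts of neighbouring cells. Fewer cells of a type and less RNA per cell cannot be told apart in such counts.

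Probes appear in the count files under identifiers alone, with no gene symbol beside them. The CD68 segments were therefore not checked against macrophage markers here, and the probes below are named by identifier with no gene attached.

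The CD68 segments were small and shallow. Their total counts were 43633 in region 1, 56172 in region 3 and 35909 in region 13, against 204150, 249104 and 80259 in the non-immune segments. The groups did not overlap, and a CD68 segment held 0.214, 0.225 and 0.447 of the counts of its partner. The areas collected differed in the same direction. The CD68 areas, in the unstated units of the deposited worksheet, were 5397, 6711 and 6401, and the non-immune areas were 27759, 24217 and 21304. Per 1000 area units the CD68 segments gave 8085, 8370 and 5610 counts and the non-immune segments 7354, 10287 and 3767. The CD68 segment was the higher one in regions 1 and 13 and the lower one in region 3, with ratios of 1.10, 0.814 and 1.49, so the yield per area did not separate the compartments. With 3 pairs, an exact permutation test within pairs cannot give a two-sided p below 0.25, and no p is given for these segment values.

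Region 13 stood apart in both compartments. It needed 29.7 aligned reads per count for CD68 and 27.2 for non-immune, against 11.5 to 15.6 in the other 4 segments. Its part in the results below is given by leaving the region out. The no template control gave 1 count from 150068 raw reads.

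**Figure D1:**
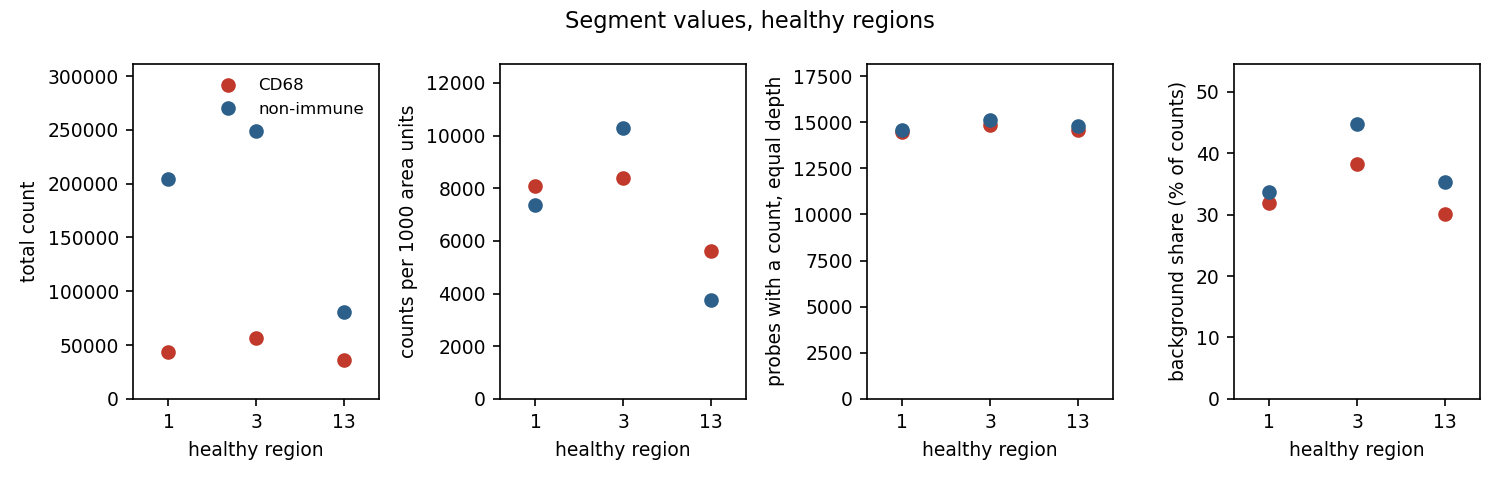
Values of the 6 healthy segments by region (x axis), CD68 in red and non-immune in blue, 1 point per segment. The panels give the total count, the counts per 1000 area units, the number of probes with a count after thinning to 35909 counts, and the estimated background share in percent. The total counts separate the compartments (35909 to 56172 against 80259 to 249104), whereas the counts per area and the probes at equal depth do not.

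Most of the difference in the number of probes seen went with depth. A count was present for 15644, 17306 and 14590 of the 20175 probes in the CD68 segments and for 20014, 20150 and 18662 in the non-immune segments. Every segment was then thinned at random to the 35909 counts of the shallowest, in a single draw that serves all values at equal depth. The numbers became 14482, 14855 and 14590 against 14556, 15122 and 14813. The CD68 segment had the lower number in 3 of 3 regions at equal depth, with ratios of 0.982 to 0.995, and the ranges of the groups overlapped. At full depth 364 probes had a count in all 3 non-immune segments and in no CD68 segment, and 0 probes had the opposite pattern. At equal depth these numbers were 170 and 133.

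Counts were spread over many probes in both compartments. The most abundant probe took 1.48% to 1.80% of the counts of a CD68 segment and 1.27% to 1.65% of those of a non-immune segment. At equal depth 3122 to 3389 probes held 50% of the counts in the CD68 segments and 3164 to 3459 in the non-immune segments. Of the 100 most abundant probes of each compartment taken as a whole, 76 were shared. Lists of 100 from single segments shared 66 to 69 probes across the compartments within a region. Such lists shared 67 to 70 between CD68 segments of different regions and 76 to 80 between non-immune segments. The leading probes of the compartments were thus mostly the same ones.

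Part of each total is background, that is, tags counted without their target RNA. It was estimated from the 2018 probes, 10% of all, that were least abundant in the segments of the other mouse. The background share came to 31.8%, 38.2% and 30.2% of the counts in the CD68 segments of regions 1, 3 and 13 and to 33.6%, 44.8% and 35.3% in the non-immune segments. It was lower in the CD68 segment in 3 of 3 regions, by ratios of 0.853 to 0.947, and the groups overlapped. The estimate depended on which probes were taken. Choosing the 10% in the other healthy compartment, the first choice made, gave 36.1%, 44.0% and 37.9% against 46.2%, 54.5% and 49.99%, a wider gap with no overlap. That choice was replaced after its values were seen, because it picks the probes at a different depth for each compartment.

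The profiles of the CD68 segments agreed less with each other than those of the non-immune segments did. Over the 500 most abundant probes, Pearson's r of log2(Q3-normalized count + 1) was 0.573 to 0.721 between CD68 segments and 0.830 to 0.920 between non-immune segments. Between the compartments it was 0.516 to 0.711 within a region and 0.592 to 0.697 across regions. At equal depth the ranges were 0.591 to 0.706 for CD68, 0.718 to 0.762 for non-immune, and 0.536 to 0.650 and 0.571 to 0.629 between them. These correlations are across probes, which are not replicates, and are given as a description.

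The compartments were then compared probe by probe. Of the 6000 most abundant probes, ranked by their average share of a segment's counts, 80 (1.33%) passed edgeR's quasi-likelihood test with region as a block and a Benjamini-Hochberg adjusted p of at most 0.05. Of these, 32 (0.533%) were higher and 48 (0.8%) lower in the CD68 segments. At an unadjusted p of at most 0.05 there were 490 probes, 8.17% of those tested. The median log2 fold change was 2.01 over the higher probes and -2.02 over the lower ones, beside -0.13 over all tested probes. The higher probes ranged from 0.84 to 3.44 and the lower ones from -5.62 to -0.76, and 42 of the 80 changed by at least 2 on the log2 scale.

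The number of calls depended strongly on the fit. Without the region block 24 probes passed, with DESeq2 4, and without a filter on low probes 40. After thinning to equal depth 1 probe passed, with 258 at an unadjusted p of at most 0.05. This was a single random draw, and the spread over draws was not measured. Leaving out region 1, 3 or 13 gave 26, 47 and 60, and 15 of the 80 probes (7 higher and 8 lower) passed in all 3 of these fits. The split between higher and lower calls moved with the scaling. It was 32 to 48 with Q3 factors, 32 to 31 with TMM factors, 32 to 26 with DESeq2 size factors and 39 to 18 with total counts. All 80 probes kept their sign under these 4 scalings, and 49 of them, 31 higher and 18 lower, were called under all 4.

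**Figure D2:**
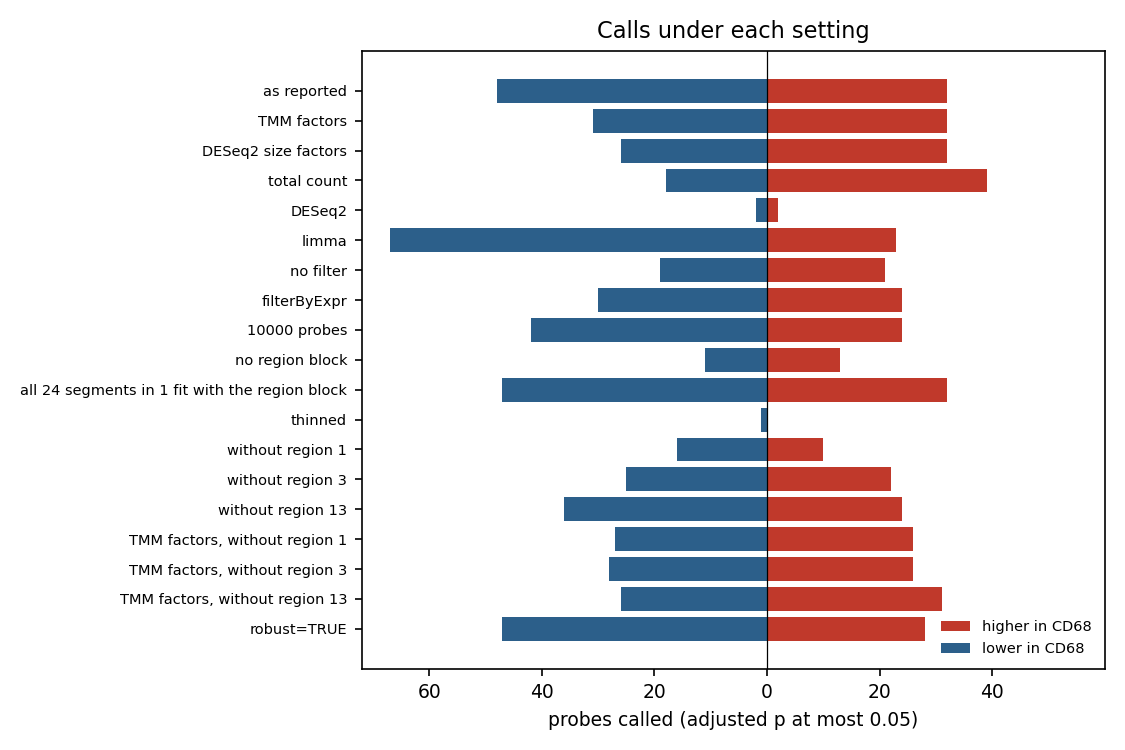
Number of probes called (x axis, adjusted p at most 0.05) under each setting (y axis), those higher in CD68 to the right in red and those lower to the left in blue. The reported fit called 32 higher and 48 lower, DESeq2 2 and 2, and the fit of the thinned counts 0 and 1.

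Calls sat where the counts were. Of the 80, 69 were among the 1500 most abundant of the tested probes, with a mean of 8.67 counts per probe in CD68 segments and 32.4 in non-immune ones. In the 1500 least abundant of the tested probes the mean counts were 2.49 and 8.92, and 3 probes were called. On simulated counts with the depth of these 6 segments, the fitted trend of spread and no region effect, the same fit found 51.4% of the probes changed by 4-fold and 7.5% of those changed by 2-fold, so that a 2-fold difference was mostly not detectable at this depth.

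Not all calls were shared by the regions. The sign was the same in all 3 pairs for 64 of the 80 (24 higher and 40 lower), as it was for 26.0% of all tested probes. The segments of the compartments did not overlap in normalized count for 57 of the 80, against 14.1% of all tested probes. In 15 of the 80, 7 higher and 8 lower, at least 80% of the counts of the higher compartment came from 1 segment, which held for 0.7% of the tested probes. These shares are of raw counts and follow the depth of the segments. On Q3-normalized counts, a check chosen after seeing the data, the number was 20 (7 higher and 13 lower, 14 of them among the 15), beside 0.717% of the tested probes. None of the 15 or of the 20 was called in all 3 fits that left out a region. Those fits include that without the region holding most of the counts, so this result was nearly fixed by how the probes were picked. By their counts, these calls rested mostly on a single region.

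**Figure D3:**
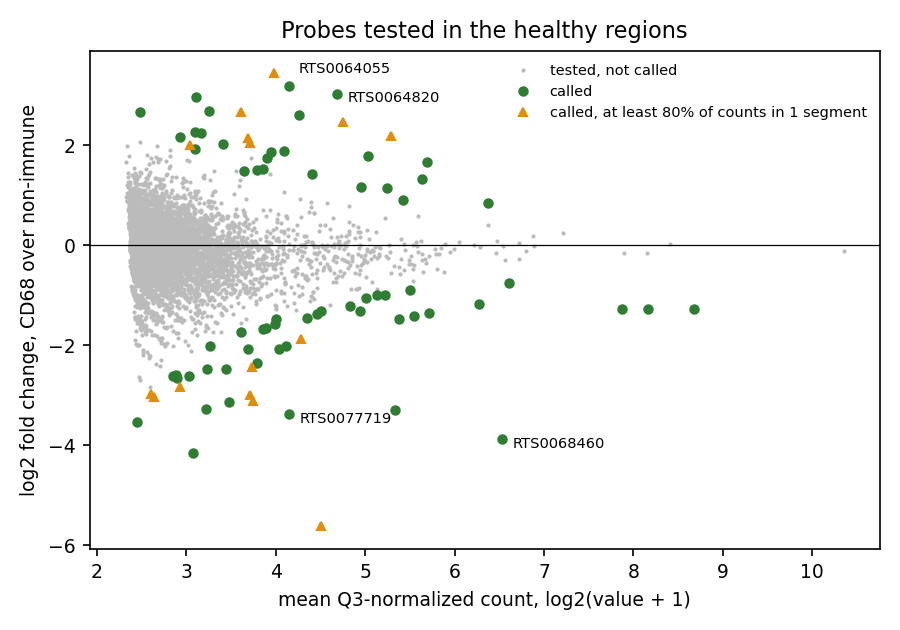
Log2 fold change of CD68 over non-immune (y axis) against the mean Q3-normalized count on a log2(value + 1) scale (x axis) for the 6000 tested probes. Grey points were not called, green points were called, and the 15 orange triangles were called with at least 80% of the raw counts of the higher compartment in 1 segment.

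Among the called probes with the same sign in 3 pairs and at least 10 counts in each segment of the higher compartment, 43 in all, the 2 highest and 2 lowest fold changes are described. RTS0064055 was counted 26, 15 and 12 times in the CD68 segments of regions 1, 3 and 13, and 10, 8 and 1 times in the much deeper non-immune segments. Per 10000 counts of the segment, this was 5.96, 2.67 and 3.34 in CD68 against 0.490, 0.321 and 0.125. Every CD68 segment lay above every non-immune segment. The Q3-normalized count was 30.4 ± 12.2 in CD68 and 2.93 ± 1.73 in non-immune segments (SD, n = 3 each). The log2 fold change was 3.19 with an SE of 0.41 and an adjusted p of 5.89e-09 in edgeR's quasi-likelihood test. Each SE given here and below was worked back from the log2 fold change and the statistic of that test. It is not an SE over the 3 regions. Within the regions the fold was 9.88, 6.56 and 24, and the 95% exact counting intervals ran from 4.61 to 23.0, 2.61 to 17.9 and 3.55 to 1026.

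RTS0064820 was counted 20, 37 and 22 times in the CD68 segments and 18, 10 and 3 times in the non-immune segments. Per 10000 counts, it stood at 4.58, 6.59 and 6.13 in CD68 and at 0.882, 0.401 and 0.374 in non-immune segments, with no overlap. It ranked between 35 and 84 among the 20175 probes of the CD68 segments and no higher than 1534 in the non-immune ones. The log2 fold change was 3.03 (SE 0.35) with an adjusted p of 1.03e-10 in edgeR's quasi-likelihood test. The fold was 4.22 in region 1, 13.0 in region 3 and 14.7 in region 13.

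RTS0068460 was one of the most abundant probes of the non-immune segments. It was counted 187, 750 and 118 times there, at ranks 20, 6 and 8, and 3, 11 and 7 times in the CD68 segments. Per 10000 counts, the non-immune segments gave 9.16, 30.1 and 14.7, and the CD68 segments 0.688, 1.96 and 1.95. The probe was lower in CD68 in every region, and the non-immune values themselves spread more than 3-fold. The log2 fold change was -3.88 (SE 0.27) with an adjusted p of 5.13e-23 in edgeR's quasi-likelihood test, and RTS0068460 was the probe called after thinning.

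RTS0077719 was counted 17, 15 and 74 times in the non-immune segments and 2, 0 and 2 times in the CD68 segments. The non-immune segment of region 13 alone held 69.8% of its raw non-immune counts and 85.2% of the Q3-normalized ones, at 9.22 per 10000 against 0.833 and 0.602 in regions 1 and 3. The log2 fold change was -3.39 (SE 0.58) with an adjusted p of 2.84e-05 in edgeR's quasi-likelihood test. Without region 13 it was -2.07 with an adjusted p of 0.423, so the call rested on that region. In region 1 the non-immune level was 2.24 times the CD68 level with a 95% exact counting interval of 0.531 to 19.96, which includes no difference. In region 3, where the CD68 count was 0, the lower limit of that interval was 1.02, and in region 13 the fold was 18.5 with an interval of 4.94 to 156.

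The 4 probes were picked for large folds of the same sign in 3 pairs, and an exact permutation test within 3 pairs cannot go below 0.25, so no such p is given for them. The small adjusted p-values were those of a fit that shares the spread across 6000 probes, as does the fit without the region block. Why they were so small was not tested. Without the region block they rose to 1.56e-04 for RTS0064055, 3.27e-05 for RTS0064820 and RTS0068460, and 0.229 for RTS0077719, and with DESeq2 to 0.0108, 0.0101, 2.39e-04 and 1.00.

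**Figure D4:**
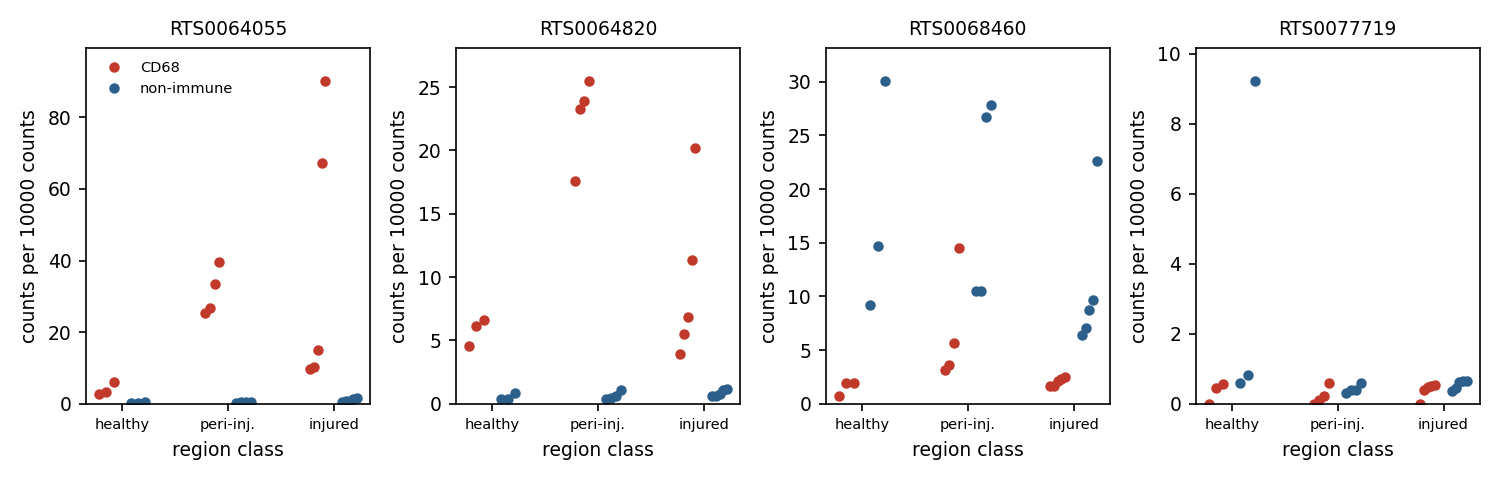
Counts per 10000 counts of the segment (y axis, from 0) for the 4 described probes, by region class (x axis), 1 point per segment, CD68 in red and non-immune in blue. RTS0064055 and RTS0064820 lie higher in CD68 in every healthy segment, and a single healthy non-immune segment at 9.22 stands apart for RTS0077719.

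The regions of the other mouse gave a second set of segments that had no part in choosing the 80 probes. In that mouse the same test, fitted separately on the same 6000 probes, called 602 probes (10%) over 4 peri-injured pairs and 215 (3.58%) over 5 injured pairs. Of the 32 probes higher in healthy CD68 segments, 23 were called higher in the peri-injured pairs and 19 in the injured pairs, where 4.92% and 1.37% of all tested probes were called higher. Of the 48 lower probes, 17 and 22 were called lower, beside 5.12% and 2.22% of all tested probes. The probes higher in CD68 were called again in either class for 23 of 32, and the lower ones for 26 of 48. The shares over all tested probes are not matched for abundance. Of the healthy calls, 30 higher and 39 lower ones were among the 1500 most abundant of the tested probes, and a share over probes of like abundance was not computed.

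Carry-over was also counted by how evenly the regions shared the call, and the reason for any difference was not tested. Of the 64 probes with the same sign in 3 healthy pairs, 39 were called the same way in the peri-injured and 40 in the injured pairs, beside 8.23% and 3.2% of all tested probes. Of the 15 probes with at least 80% of their raw counts in 1 segment, 0 were called the same way in either class by edgeR's quasi-likelihood test. Their signs were the same in 8 (53.3%) and 10 (66.7%), beside 57.7% and 59.5% of all tested probes. The directions differed in this. In the peri-injured pairs the sign was kept by 2 of 7 higher and 6 of 8 lower probes, beside 50.8% and 62.6% of all tested probes. In the injured pairs it was kept by 7 of 7 and 3 of 8, beside 44.9% and 69.7%. Of the 20 probes by normalized counts, 0 were called the same way in either class as well. Depth differed between the mice, with totals in the other mouse of 21955 to 119493 for CD68 and 201239 to 671249 for non-immune segments.

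**Figure D5:**
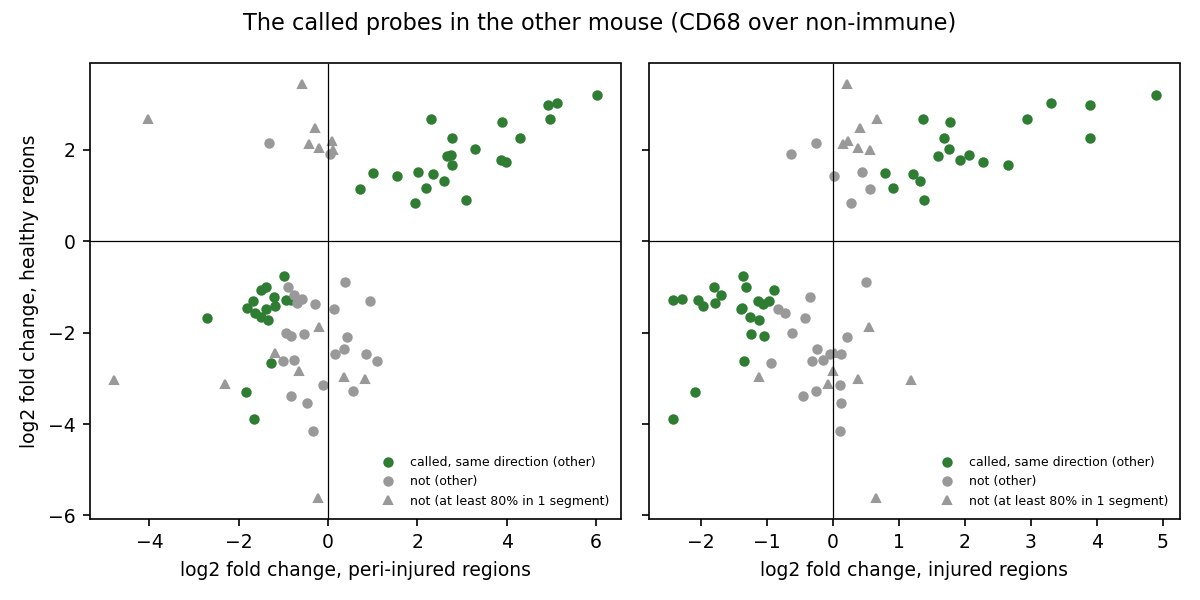
Log2 fold change of CD68 over non-immune in the healthy regions (y axis) against that in the peri-injured (left) or injured (right) regions (x axis) for the 80 called probes. Green points were also called in the same direction in the other mouse, grey points were not, and triangles had at least 80% of their raw counts in 1 healthy segment. None of the 15 triangles is green.

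The described probes differed in this. RTS0064055 reached 25.4 to 39.6 counts per 10000 in the 4 peri-injured CD68 segments and 9.61 to 90.2 in the 5 injured ones, all above the 2.67 to 5.96 of the healthy ones, while its non-immune levels stayed between 0.358 and 1.67 in that mouse. Its log2 fold change was 6.02 (SE 0.21) in the peri-injured and 4.89 (SE 0.19) in the injured pairs. RTS0064820 had log2 fold changes of 5.13 and 3.31, and RTS0068460 of -1.65 and -2.43, all called in edgeR's quasi-likelihood test. RTS0077719 was at -0.83 and -0.46 with adjusted p-values of 0.590 and 0.726 in edgeR's quasi-likelihood test, and its non-immune segments there did not exceed 0.648 per 10000.

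Whether the compartment difference itself differed between the classes was tested in a fit of all 24 segments. Between healthy and peri-injured regions 49 of 6000 probes (0.817%) passed, and in 45 of them the CD68 minus non-immune difference was more negative in the healthy lung. The median log2 fold change of the 49 in the separate fits was 0.24 in the healthy and 1.95 in the peri-injured pairs. Between healthy and injured regions 8 (0.133%) passed, 7 of them more negative in the healthy lung. Their medians were -1.09 in the healthy and 0.60 in the injured pairs. Of the 49, 18 were also among the 80 healthy calls, and 39 were called in the peri-injured pairs. Without the region block the counts were 15 and 0, the latter with 278 probes at an unadjusted p of at most 0.05 in edgeR's quasi-likelihood test.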

How the data were processed

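The 6 healthy segments, 3 CD68 and 3 non-immune, were grouped and paired by their labels. The deposited counts were made by the authors with the GeoMx NGS Pipeline (2.3.4 per the file headers, 2.3.5 in the metadata sheet) from the mouse whole transcriptome probe kit v1.0, and are whole-number counts of deduplicated tags per probe, not normalized. The submitters' processing notes name mm10. The study kept 6000 targets, scaled by the third quartile (Q3) and fitted a mixed model with a region effect.

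Here the 6000 probes with the highest mean share over the 6 segments were kept, scaled by the 75th percentile, and tested with edgeR 4.0.16 (quasi-likelihood, region as a block, Benjamini-Hochberg adjustment, threshold 0.05) in R 4.3.3. Other fits used limma 3.58.1 and DESeq2 1.42.0. The fit was tested on simulated data, with 200 of 6000 probes changed in each of 10 draws, and made 2 false calls per draw on average. Every simulated probe followed the fitted trend of spread, so this number does not cover calls that rest on a single segment. Totals ran from 35909 to 249104 counts, and intervals and floors cover counting error only. The probes described were the 2 highest and 2 lowest log2 fold changes among calls with the same sign in 3 pairs and at least 10 counts in each segment of the higher compartment. Members, lists and tests were chosen with earlier results of these data known.

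The region numbers mark a shared place in the tissue. Deviations from the compartment means correlated by 0.015, 0.021 and 0.0085 within regions 1, 3 and 13, so the pairs hardly deviated together. The block was kept because the segments of a region were cut from the same place and the study's model has a region effect. That effect was random, in a comparison of CD68 segments across regions, and not a pairing of compartments. With the block 80 probes were called and without it 24, so the number of calls depends on this choice. Marker lists were not applied, since the count files carry identifiers only.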

Additional observations from a re-analysis of the deposited data

Results flagged for a closer look

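The compartment difference differed between the region classes for 49 probes between healthy and peri-injured regions and for 8 between healthy and injured regions, by the interaction term of edgeR's quasi-likelihood test over 24 segments. Class and mouse cannot be told apart in these counts.

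Of the 4 described probes, 3 differed between healthy and peri-injured regions. The difference in log2 fold change, healthy minus peri-injured, was -2.81 for RTS0064055 (adjusted p 3.70e-04), -2.07 for RTS0064820 (adjusted p 0.00347) and -2.22 for RTS0068460 (adjusted p 0.00162) in edgeR's quasi-likelihood test. RTS0064055 and RTS0064820 were thus further above the non-immune segments in the peri-injured regions, and RTS0068460 was further below them in the healthy regions. None of the 3 passed without the region block, with adjusted p-values of 0.201, 0.156 and 0.145. Without healthy region 1 RTS0064820 did not pass (adjusted p 0.420), and without healthy region 3 RTS0068460 did not (adjusted p 0.127). Groups of 3 segments were too small to look for single outlying segments.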

How the results depend on the processing

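The count of 80 called probes fell to 4 with DESeq2, 40 without a filter, 24 with no replicate block on the region and 1 after thinning, and ran from 26 to 60 when 1 region was left out, or from 53 to 57 with TMM factors (an alternative chosen after seeing the data). The cause was not tested, except that thinning removes counts. It stayed within 1.5 times under TMM (63), DESeq2 size factors (58), total counts (57), limma (90) and filterByExpr (54). The same held for 10000 probes (66), the fit of all 24 segments (79) and robust estimation (75, also chosen after seeing the data). In this order, 62, 57, 49, 56, 43, 63, 76 and 74 of the calls were among the 80. Similar counts thus did not always mean the same probes. The limma calls split into 23 higher and 67 lower, and filterByExpr kept only 483 probes for testing. The same-direction share of calls in the other mouse ranged from 38.3% to 50% (peri-injured) and from 44.7% to 61.5% (injured) with 1 region left out. With no replicate block, the differences between classes fell from 49 to 15 and from 8 to 0, and with 1 healthy region left out they ran from 29 to 35 and from 11 to 19. The log2 fold changes of the 4 described probes kept their sign in all settings where they were tested. RTS0064055 and RTS0064820 lost their call after thinning (adjusted p 0.163 and 0.128 in edgeR's test). RTS0077719 was not tested under filterByExpr, and lost its call in 5 settings: DESeq2, no block, thinned, and without region 13 under both scalings. The mean background share, 33.4% in CD68 and 37.9% in non-immune segments, became 27.4% and 31.6% with the 5% least abundant probes, 42.1% and 45.6% with 20%, and 39.3% and 50.2% with the probes first chosen in the other healthy compartment. The mean number of non-immune probes holding 50% of the counts fell from 4363 to 3305 after thinning. The mean ratio of total counts ran from 0.220 to 0.336 with 1 region left out. Low counts in the CD68 segments, with a median of 3 to 4 per tested probe, limit all of these results, and 3 regions of 1 mouse say nothing of the spread between animals.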

Other observations

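Some called probes had consecutive identifier numbers. Of the 31 called probes whose next number was also tested, 3 (9.68%) were followed by another called probe, where 1.33% of all tested probes were called. They moved in the same direction each time, and together they made 1 run of 4 probes. What the numbers stand for is not given in the sources used here.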
